A study of Homo sapiens with 12 samples.

Results

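Splicing was examined in 10 genes that carry signals from immune receptors to NF-kappaB: the adaptors TRAF2, TRAF3 and TRAF6, the kinase gene MAP3K14 (NIK), the IkappaB kinase genes CHUK (IKK alpha), IKBKB (IKK beta) and IKBKG (NEMO), and the subunit genes NFKB1, NFKB2 and RELA. They were chosen by name, with earlier results of these data known. All 10 were found among the 30275 genes of a table of splicing events on the human genome build hg38. Their rows numbered 558 of 721551, of which 506 had at least 10 reads in every sample and 188 could be tested. RNA came from MEC1, an established B cell line from chronic lymphocytic leukemia. The cells carried wild-type SF3B1 (WT) or its K700E hotspot mutation; SF3B1 is the core splicing protein that helps to recognise the branch point before a 3' splice site. They received 75 nM H3B-8800, an oral small molecule that binds the SF3B complex, or its vehicle DMSO, for 6 h. The 12 samples formed 4 groups of 3, one for each genotype with each treatment.

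WT replicates 1 and 2 were cultures labelled a and b with no base change given, and WT replicate 3 was the clone 34b, labelled WT with c.2106G>A. The K700E replicates 1, 2 and 3 were the clones 41, 38 and 15b, each labelled with c.2098A>G and c.2106G>A. Every culture or clone was present once in DMSO and once in H3B-8800. Of the WT samples, those of clone 34b alone share a labelled base change with the K700E clones, so genotype and cloning cannot be fully told apart.

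NF-kappaB is a family of dimeric transcription factors held inactive until a receptor signal releases them. In the canonical pathway, TRAF6 or TRAF2 links receptors such as Toll-like receptors or TNF receptors to the IKK complex of IKK beta, IKK alpha and NEMO, which marks the inhibitor IkappaB for destruction and frees dimers of p50 (from NFKB1) and RELA. In the noncanonical pathway, used by CD40 and the BAFF receptor in B cells, TRAF3 together with TRAF2 keeps the kinase NIK at a low level by having it degraded; once TRAF3 is removed, NIK activates IKK alpha, which drives the processing of NFKB2 to p52. Loss of TRAF3 is a recurrent lesion of B cell cancers.

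The sequences that carry the main findings come from GENCODE 29 transcripts on GRCh38 (the hg38 assembly), 5' to 3' on the strand of the gene. The first set holds TRAF3 coding exons 8 (chr14:102889560-102889634, plus strand, 75 nt) and 9 (chr14:102891325-102891417, 93 nt), printed because both were nearly lost in H3B-8800, as was exon 7 (81 nt) before them. The summed length of exons 7 to 9, 249 nt, is 83 codons with a remainder of 0, so leaving out all 3 together would keep the reading frame; reads that span such a join were not counted apart. As background, this stretch of TRAF3 includes code for part of its zinc fingers, which lie between the RING domain and the receptor-binding TRAF domain. Where the zinc fingers end within these exons was not examined.
TRAF3 exon 8: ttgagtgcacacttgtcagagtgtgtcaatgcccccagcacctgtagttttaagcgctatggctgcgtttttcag
TRAF3 exon 9: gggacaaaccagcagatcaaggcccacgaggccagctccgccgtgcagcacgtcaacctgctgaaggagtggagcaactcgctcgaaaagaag

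The second is exon 11 of NFKB1 (chr4:102584682-102584820, plus strand, 139 nt), in which splicing began at places inside the exon. The capitals mark the AG that ends just before each inner 3' splice site. The first inner site starts the exon at 102584737, 55 nt in, and the second at 102584754, 72 nt in; the pair lies 17 nt apart. Starting at the second removes a multiple of 3 nt (remainder 0), whereas starting at the first leaves a remainder of 1.
NFKB1 exon 11: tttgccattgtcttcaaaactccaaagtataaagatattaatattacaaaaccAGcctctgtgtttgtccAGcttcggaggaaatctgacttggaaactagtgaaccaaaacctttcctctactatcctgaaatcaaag

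The third set holds examples of affected exons and introns that differ in base content. Base content over all called exons and introns was not examined. Exon 7 of CHUK (chr10:100219008-100219132, minus strand, 125 nt) has 44.0% G or C, and exon 5 of IKBKG (chrX:154560407-154560559, plus strand, 153 nt) has 74.5%. RELA introns 3 (chr11:65661836-65661936, minus strand, 101 nt, 60.4% G or C) and 2 (chr11:65662089-65662178, 90 nt, 74.4%) are short introns within the coding part that were retained in H3B-8800. Their sequences come from transcripts annotated as retaining them. Capitals mark their first and last bases, GT and AG.
CHUK exon 7: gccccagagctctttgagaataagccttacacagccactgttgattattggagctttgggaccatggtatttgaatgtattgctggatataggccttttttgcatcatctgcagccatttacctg
IKBKG exon 5: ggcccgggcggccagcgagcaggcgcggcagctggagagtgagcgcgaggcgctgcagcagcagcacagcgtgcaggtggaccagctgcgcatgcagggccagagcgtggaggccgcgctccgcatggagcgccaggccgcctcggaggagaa
RELA intron 3: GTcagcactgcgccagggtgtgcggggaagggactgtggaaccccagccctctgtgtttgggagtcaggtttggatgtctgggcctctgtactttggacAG
RELA intron 2: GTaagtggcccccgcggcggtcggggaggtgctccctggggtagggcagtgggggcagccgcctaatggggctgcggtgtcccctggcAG

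Inclusion of an exon, retention of an intron and use of an alternative splice site are given as the percent of transcripts, per sample or as mean ± SD (n = 3), and differences in percentage points. An event was called when limma gave an adjusted p (Benjamini-Hochberg over all 120485 tested events) under 0.05 and the group means differed by at least 10 points. Samples had 45840233 to 56676172 spliced reads, and their median depth over the tested events of these genes was 256 to 439 reads. With 256 reads, a level of 50% has a 95% Wilson interval of ± 6.08 points, for counting error only. The sample identity as B cells was checked by 6 B cell marker genes, whose summed level was 1250 to 1990 RPM (spliced reads scaled to the library total); CD3G was at 0 in every sample and 0 of the 4 measured myeloid markers exceeded 1 RPM. Of 6 fibroblast and epithelial markers 4 did, with a summed level of 11.3 to 20 RPM, and of 7 T and NK cell markers 2 did, with a summed level of 8.81 to 36.2 RPM in WT and 5.96 to 10.7 RPM in K700E. Most of the last was GNLY, which averaged 22.5 and 24.9 RPM in WT and 6.71 and 7.28 RPM in K700E (DMSO and H3B-8800), and its part in the genotype comparisons was not tested.

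In H3B-8800, many exons of the 10 genes were included less and many of their introns retained more, in both genotypes. In WT, 77 of the 188 events were called (41%, against 31.4% of all tested events) and in K700E 83 (44.1%, against 30.7%). Of 68 tested exons, 34 (50%) were included less in WT and 34 in K700E, against 39.6% and 38% of all exons, and 0 were included more. Of 88 introns, 39 (44.3%) were retained more in WT and 40 (45.5%) in K700E, against 32.0% and 31.6% of all introns. The alternative 3' and 5' sites gave 4 calls of 32 in WT and 8 in K700E, or 12.5% and 25.0%, against 8.31% and 9.33% of all such sites. The median exon difference was -10.3 points in WT and -9.94 in K700E, beside -6.79 and -6.41 over all exons tested, and the median intron difference was 8.32 and 9.0 points, beside 4.98 and 5.07. The share called in these genes was above that of all events in each class, and this difference was not tested. Because the genes were chosen with earlier results of these data known, the larger share cannot be read as a trait of these genes.

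The calls of the 2 genotypes overlapped, as they did over all events. Of the 77 events called in WT, 72 (93.5%) were called in K700E, which is 86.7% of the 83 there, and the direction was the same in all 72. Over all tested events the shared calls were 86.5% of those in WT and 88.4% of those in K700E. Every gene had at least 1 call in each genotype, from 6 to 36 tested events per gene. The share of all genes with a call was not counted, so this cannot be read as a trait of these genes. NFKB2 had 15 and 16 calls of 36 tested events (WT and K700E), IKBKB 15 and 18 of 35, CHUK 10 and 10 of 21, NFKB1 5 and 7 of 18, RELA 9 and 9 of 17, MAP3K14 6 and 6 of 17, TRAF2 6 and 6 of 16, IKBKG 5 and 6 of 12, TRAF3 5 and 4 of 10, and TRAF6 1 and 1 of 6. As a share, RELA had the most in both genotypes (52.9%) and TRAF6 the fewest (16.7%), and the differences between genes were not tested. The single called exon or intron that went against the common direction was an 11618-nt intron of IKBKB within the coding part. It starts at an alternative 5' site 56 nt beyond exon 5. Its retained share fell in K700E from 31.2% ± 1.94 to 12.8% ± 1.74 (adjusted p = 0.00117). In WT the share was 18.9% ± 1.93 and 15.8% ± 2.20 (adjusted p = 0.337). Its spliced reads, only 25, 17 and 19 in K700E DMSO, rose from 0.383 to 1.78 RPM in K700E. In WT they rose from 0.407 to 1.81 RPM. Use of the 5' site rose by 11.6 points in K700E, where it was called. The lower share therefore cannot be read as less unspliced RNA, and its cause was not tested. The exons not tested for their level were nearly constant: 77 exons of the 10 genes had a mean inclusion above 99%, and over all kinds 114 events lay above 99%, with 95.33% as the lowest sample, and 107 below 1%, with 3.21% as the highest.

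**Figure D1:**
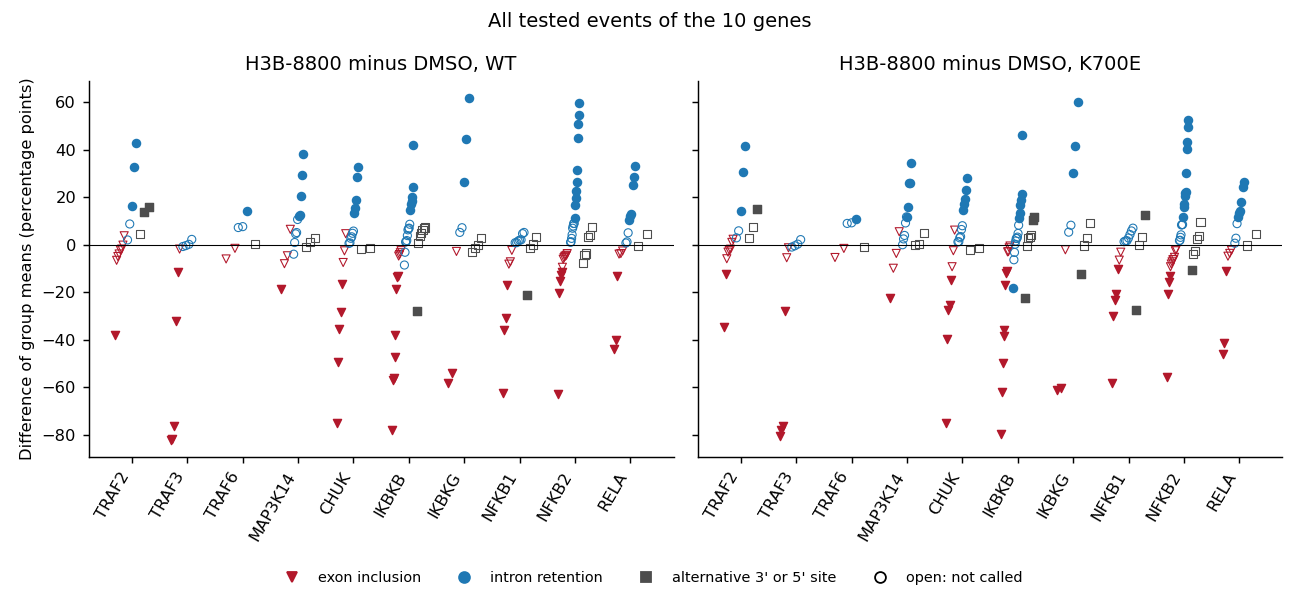
Difference of group means (H3B-8800 minus DMSO, percentage points, vertical axis) for each of the 188 tested events, by gene, in WT (left) and K700E (right); triangles are exons, circles introns and squares alternative splice sites, filled where called. Called exons lie below 0 in both panels and called introns above it, except the IKBKB intron at -18.3 points in K700E; the 3 lowest points of TRAF3 lie at -82.2, -81.7 and -76.3 in WT.

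Among the adaptors, TRAF3 held the exon with the largest fall of the 10 genes in both genotypes. Exon 7 was included at 91.4%, 92.05% and 93.96% in the WT DMSO samples and at 11.4%, 10.37% and 9.1% in the WT H3B-8800 samples. In K700E it was included at 93.45%, 94.01% and 91.76% in DMSO and at 12.45%, 11.62% and 14.3% in H3B-8800. No sample of one treatment came near those of the other, and inclusion fell by 82.2 points in WT (adjusted p = 3.19e-09) and by 80.3 points in K700E (adjusted p = 4.77e-09).

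The next 2 exons, printed above, fell with it. Exon 8 had 81.95%, 82.93% and 78.51% in WT DMSO against 4.8%, 5.23% and 4.6% in WT H3B-8800, and 84.71%, 85.46% and 81.3% against 6.63%, 6.75% and 9.82% in K700E. Exon 9 had 91.23%, 92.94% and 92.77% against 11.19%, 10.73% and 9.86% in WT, and 94.29%, 93.85% and 90.75% against 14.65%, 12.63% and 17.81% in K700E. The differences were -76.3 and -81.7 points in WT and -76.1 and -77.9 points in K700E (adjusted p from 5.03e-09 to 8.81e-09). Around them the gene was less affected. Exon 10 (141 nt) went in WT from 97.2% ± 0.57 to 65.2% ± 1.89 and in K700E from 98.1% ± 1.10 to 70.1% ± 6.02, and the noncoding exon 2 (139 nt) from 96.2% ± 0.54 to 85.0% ± 1.94 in WT. In K700E exon 2 stood at 94.9% ± 0.70 and 89.5% ± 1.52, a difference of -5.41 points that was under the size threshold (adjusted p = 0.0016). Another 5 TRAF3 exons had a mean inclusion above 99%.

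**Figure D2:**
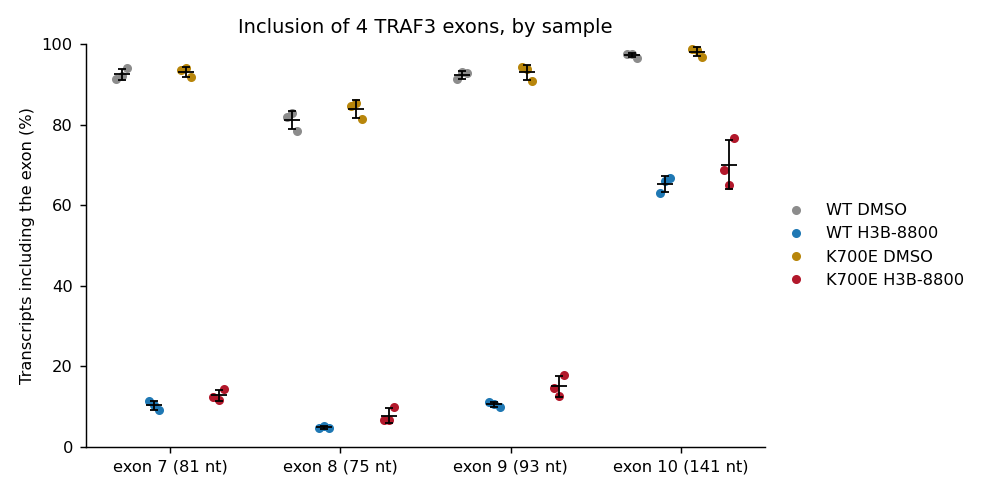
Percent of TRAF3 transcripts including exons 7 to 10 (vertical axis) in each sample, coloured by genotype and treatment; bars are the mean ± SD of 3 samples. Exons 7, 8 and 9 lie at 78.51% or more in all 6 DMSO samples and at 17.81% or less in all 6 H3B-8800 samples, while exon 10 is at 63.08% or more.

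Summed over the TRAF3 introns, the unspliced share stayed low. Unspliced reads made up 0.613%, 0.837% and 0.927% of the reads over its intron boundaries in WT DMSO and 1.76%, 2.43% and 2.08% in WT H3B-8800. The K700E samples had 0.907%, 1.12% and 1.05% against 1.66%, 2.13% and 1.93%. The 4 tested TRAF3 introns gave no call in either genotype. Intron 6 (9663 nt), before exon 7, was not tested because reads over its ends differed; its share of unspliced reads at the 5' boundary went in WT from 1.66% ± 0.457 to 17.8% ± 3.09 and in K700E from 2.57% ± 0.809 to 13.6% ± 2.43.

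The spliced reads of TRAF3 rose. The exon-exon reads of its 10 introns in the table summed to 75.9, 64.4 and 70.2 RPM in WT DMSO and 145, 135 and 152 RPM in WT H3B-8800, and to 62.3, 69.1 and 93.3 RPM against 125, 125 and 177 RPM in K700E. The groups did not overlap, and the difference on the log2 scale was 1.04 (SE 0.16, adjusted p = 0.000235) in WT and 0.93 (adjusted p = 0.0007) in K700E. All 10 introns were higher in every WT H3B-8800 sample than in every WT DMSO sample, and 9 of 10 in K700E. The exon-exon reads deposited for an intron include reads that skip the exon beside it: intron 7 had a mean of 310 spliced reads in WT DMSO and 754 in WT H3B-8800, while inclusion reads of the exon that follows it went from 446 to 40 and its skipping reads from 104 to 777. Without the introns that border a called exon, the log2 difference of TRAF3 was 0.99 in WT and 0.85 in K700E.

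TRAF6, the adaptor of Toll-like and interleukin-1 receptors and a ubiquitin ligase, had 1 called event of 6 in each genotype. It had 6.64, 7.26 and 6.87 RPM in WT DMSO and 16.1, 15.3 and 15.6 RPM in WT H3B-8800, and in K700E 7.77, 6.55 and 7.52 RPM against 16.2, 13.3 and 13.9 RPM. The samples separated by treatment, with a log2 difference of 1.17 (SE 0.12, adjusted p = 8.22e-06) in WT and 0.99 (adjusted p = 4.28e-05) in K700E, and all 6 of its introns rose without overlap in both. Of its 6 tested events only introns were called. Intron 5 (2060 nt) went from 0.25% ± 0.44 to 14.7% ± 2.89 in WT, and intron 7 (1900 nt) from 3.98% ± 1.09 to 15% ± 3.07 in K700E. Each was under the size threshold in the other genotype, at differences of 9.05 points for intron 5 in K700E and 7.69 points for intron 7 in WT, so the pair does not show a difference between genotypes, and the test of the difference called neither.

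TRAF2, which recruits the ubiquitin ligases BIRC2 and BIRC3 and pairs with TRAF3, had 1 called exon in WT and 2 in K700E, all included less, and 3 called introns in each genotype, all retained more. An 89-nt stretch of coding sequence (chr9:136900432-136900520) was included at 100%, 100% and 98.93% in WT DMSO and at 63.35%, 59.41% and 62.68% in WT H3B-8800. In K700E it was included at 100%, 98.75% and 98.86% against 65.76%, 64.98% and 62.89%. Exon 5 (162 nt) fell in K700E from 97.0% ± 1.36 to 84.6% ± 3.88 (adjusted p = 0.000113), and in WT it went from 95.9% ± 1.45 to 91.0% ± 0.67, a difference of -4.89 points below the size threshold (adjusted p = 0.0158). Intron 7 (3618 nt) rose in WT from 3.11% ± 0.51 to 46.2% ± 2.82 and in K700E from 3.51% ± 0.37 to 45.3% ± 4.44 (adjusted p = 2.61e-08 and 4.37e-08). Introns 8 (522 nt) and 9 (2636 nt) rose to 36.6% ± 1.74 and 17.2% ± 0.38 in WT. An alternative 3' site that lengthens its exon by 96 nt went in WT from 1.05% ± 0.29 to 16.8% ± 1.78 and in K700E from 0.82% ± 0.45 to 16.1% ± 2.86. Spliced TRAF2 reads were 57.2, 67.6 and 71.6 RPM against 70.8, 96.0 and 100 RPM in WT, where the groups overlapped, and 66.3, 73.4 and 76.7 RPM against 101, 88.4 and 101 RPM in K700E. The log2 differences of 0.43 (adjusted p = 0.0175) and 0.42 (adjusted p = 0.0222) passed the test, but each was lost in 3 of the 6 fits that left out 1 sample. These were WT DMSO replicate 1 and WT H3B-8800 replicates 2 and 3 (adjusted p up to 0.0751), and K700E DMSO replicate 1 and K700E H3B-8800 replicates 1 and 3 (adjusted p up to 0.0712). With the clone as a replicate block, which takes each culture against itself, both were called (adjusted p = 7.82e-05 in WT and 0.000107 in K700E), and every culture or clone rose.

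MAP3K14 encodes NIK, whose protein TRAF3 and TRAF2 keep low. Its spliced reads rose from 27.7, 26.9 and 29.3 RPM to 53.5, 60.7 and 60.3 RPM in WT, and from 26.5, 27.4 and 21.0 RPM to 58.4, 41.4 and 29.9 RPM in K700E. The WT samples lay further apart by treatment than the K700E samples, of which replicate 3 in H3B-8800 was close to the DMSO samples. The log2 difference was 1.05 (SE 0.20, adjusted p = 0.000869) in WT and 0.75 (adjusted p = 0.00854) in K700E, the latter not called in a fit of these 6 samples alone (adjusted p = 0.0586). Each of the 3 K700E clones rose, and with the clone block the K700E difference was called (adjusted p = 3.4e-05). The test of the difference between genotypes gave -0.31 (adjusted p = 1.0).

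Of its exons only exon 8 (132 nt, coding) was called, from 100% in all 3 WT DMSO samples to 75.23%, 86.77% and 82.93%, and from 100% in all 3 K700E DMSO samples to 86.57%, 74.96% and 71.55%. The introns on both sides of this exon were retained in the same samples. Intron 8 (515 nt) rose in WT from 2.80% ± 0.18 to 40.9% ± 12.9 and in K700E from 4.82% ± 1.47 to 39.4% ± 10.1, and intron 7 (209 nt) from 1.57% ± 0.95 to 31.2% ± 7.94 and from 0.87% ± 0.76 to 27.0% ± 7.32. The SD among H3B-8800 samples was wide for these introns, yet the lowest of them, 18.9%, lay above the highest DMSO sample of either intron, 5.77%. Introns 5, 12 and 13, with lengths from 207 to 1481 nt, were called in both genotypes too.

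Among the IkappaB kinases, CHUK had the largest fall of spliced reads. CHUK encodes IKK alpha, the kinase that acts on NFKB2. Its 20 introns summed to 115, 113 and 120 RPM in WT DMSO and 31.4, 36.4 and 34.2 RPM in WT H3B-8800, and to 136, 128 and 134 RPM against 51.4, 43.9 and 43.7 RPM in K700E. All 20 introns were lower in every H3B-8800 sample than in every DMSO sample, in both genotypes. The log2 difference was -1.78 (SE 0.08, adjusted p = 1.29e-07) in WT and -1.52 (SE 0.08, adjusted p = 7.42e-07) in K700E.

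Several CHUK exons were included less. Exon 7, printed above, was included at 98.71%, 99.13% and 98.92% in WT DMSO and at 22.3%, 26.55% and 23.24% in WT H3B-8800. The K700E values were 98.88%, 98.38% and 98.78% against 22.49%, 25.53% and 22.9%, and the fall was 74.9 points in WT (adjusted p = 1.9e-09) and 75.0 points in K700E (adjusted p = 2.45e-09). Exon 4 (70 nt), at 100% in all 6 DMSO samples, was at 50.6% ± 4.37 in WT and 60.2% ± 4.00 in K700E. Exon 17 (97 nt) fell from 99.9% ± 0.26 to 64.3% ± 4.27 and 74.6% ± 2.11, and exon 14 (62 nt) in WT from 97.7% ± 1.14 to 69.4% ± 4.20 and in K700E from 98.7% ± 0.67 to 71.0% ± 7.70. None of these 4 exon lengths is a multiple of 3. The retained introns lay at the 3' end of the gene: introns 16 to 20 were the 5 calls in both genotypes, with intron 20 (1241 nt) at 10.7% ± 0.70 and 43.4% ± 5.21 in WT and at 11.1% ± 1.43 and 39.5% ± 4.70 in K700E.

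IKBKB encodes IKK beta, the main kinase for IkappaB. Its exon 15 (62 nt, coding) was included at 88.09%, 86.99% and 87.65% in WT DMSO and at 12.6%, 9.13% and 7.04% in WT H3B-8800. In K700E the exon had 88.99%, 94.12% and 90.66% against 8.41%, 11.78% and 14.08%. The difference was -78 points in WT (adjusted p = 5.24e-08) and -79.8 points in K700E (adjusted p = 4.53e-08), so that in WT TRAF3 exons 7 and 9 alone fell further, and in K700E TRAF3 exon 7 alone. Near the start of the gene, an 88-nt stretch of coding sequence fell in WT from 64.2% ± 4.20 to 7.12% ± 0.21 and in K700E from 76.0% ± 2.42 to 14.1% ± 4.63. With these ends the stretch matches no annotated exon. In WT, exons 5 (70 nt) and 4 (118 nt) fell from 94.2% ± 2.23 to 38.2% ± 7.65 and from 94.6% ± 1.92 to 47.3% ± 7.48.

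Retention of IKBKB intron 7 (2468 nt) rose from 0%, 1.09% and 1.0% to 31.47%, 47.44% and 49.44% in WT and from 0.48%, 0.75% and 0.25% to 45.82%, 53.23% and 41.75% in K700E. Use of an annotated 3' site that lengthens its exon by 53 nt fell in WT from 94.6% ± 2.42 to 66.9% ± 2.02 and in K700E from 95.6% ± 0.83 to 73.1% ± 2.30. The spliced reads of IKBKB did not pass the test. They were 72.1, 77.2 and 82.9 RPM against 64.6, 74.7 and 82.0 RPM in WT and 99.7, 68.2 and 81.9 RPM against 100, 62.2 and 71.7 RPM in K700E, with overlapping groups and log2 differences of -0.07 (SE 0.18, adjusted p = 0.746) and -0.11 (SE 0.18, adjusted p = 0.652).

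IKBKG encodes NEMO, the regulatory subunit that binds ubiquitin chains. A near-identical pseudogene copy of part of this gene lies nearby on chromosome X, so its reads may be shared and its values are uncertain. Exon 5, printed above, had 60.22%, 68.43% and 67.76% in WT DMSO and 9.8%, 6.6% and 5.71% in WT H3B-8800, and 60.71%, 66.99% and 70.7% against 5.31%, 4.27% and 7.61% in K700E. Exon 4 (119 nt), beside it, fell in WT from 94.7% ± 3.03 to 40.9% ± 5.71 and in K700E from 95.4% ± 2.59 to 34.5% ± 7.67. The most retained intron of the 10 genes was IKBKG intron 6 (1025 nt), at 16.95%, 26.85% and 27.79% in WT DMSO and 75.51%, 89.76% and 91.81% in WT H3B-8800, and at 20.48%, 21.23% and 22.02% against 83.0%, 85.42% and 76.3% in K700E. Intron 9 (298 nt) rose from 13.7% ± 5.45 to 58.4% ± 4.38 in WT. Use of an annotated 3' site (chrX:154562810) fell in K700E, from 98.5% ± 0.94 to 86.4% ± 3.64 (adjusted p = 0.000921), and was 99.6% ± 0.68 and 96.8% ± 3.50 in WT, where the samples overlapped.

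Spliced IKBKG reads were 24.6, 25.9 and 27.3 RPM against 16.7, 21.5 and 21.7 RPM in WT and 37.7, 24.8 and 28.0 RPM against 40.0, 24.4 and 27.3 RPM in K700E. They were lower in all 3 WT samples in H3B-8800, but the log2 difference of -0.39 (SE 0.20) did not pass the test (adjusted p = 0.118), and that of K700E was 0.01 (adjusted p = 0.978). With the clone as a replicate block the WT difference was called (adjusted p = 0.000327), as in a fit of these 6 samples alone (adjusted p = 0.0156). The block also called the difference of the H3B-8800 effect between genotypes, 0.39 (adjusted p = 0.0435, with 6.05% of all genes called in that fit). These sums include reads that skip exons. Introns 4 and 5, beside the called exon 5, had H3B-8800 to DMSO ratios of 1.6 and 1.2 in WT and 3.13 and 1.99 in K700E. Without introns that border a called exon, the K700E difference was -0.25 (adjusted p = 0.325), so the 0.39 cannot be read as a plain change of level.

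Of the subunit genes, NFKB1 was skipped at its early exons and hardly retained introns. NFKB1 encodes p105, the precursor of p50. Exon 4 (41 nt, the shortest called exon) had 97.36%, 96.32% and 98.2% in WT DMSO and 32.57%, 35.51% and 36.32% in WT H3B-8800, and 97.23%, 98.04% and 93.69% against 39.58%, 38.09% and 36.98% in K700E (adjusted p = 1.28e-07 and 2.97e-07). Exons 5 (99 nt), 2 (46 nt) and 8 (159 nt) fell from 98.8% ± 0.26 to 62.9% ± 1.82, from 98.5% ± 0.76 to 67.6% ± 3.24 and from 99.1% ± 0.27 to 82.3% ± 2.70 in WT, and were called in K700E as well. Of its 7 tested introns 0 were called by limma in either genotype. Unspliced reads made up 0.38% ± 0.0258 and 1.73% ± 0.181 of the NFKB1 boundary reads in WT (DMSO and H3B-8800) and 0.447% ± 0.0227 and 2.37% ± 0.107 in K700E.

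The spliced reads of NFKB1 were the highest per intron of the 10 genes. They summed to 362, 341 and 373 RPM in WT DMSO and 293, 291 and 302 RPM in WT H3B-8800, and to 361, 337 and 344 RPM against 291, 256 and 245 RPM in K700E, with no overlap. The log2 differences of -0.28 (adjusted p = 0.0054) and -0.40 (adjusted p = 0.00074) stand beside a median of -0.28 and -0.22 over all 10182 genes. With size factors that centre this median near 0 the WT difference was -0.01 and not called (adjusted p = 0.887), and the K700E difference was -0.18.

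NFKB2 encodes p100, the precursor of p52, and of the 10 genes it had the most called introns, 10 in WT and 11 in K700E of 18 tested. Intron 16 (163 nt) was retained at 8.57%, 11.43% and 11.13% in WT DMSO and 65.67%, 70.63% and 74.55% in WT H3B-8800, and at 10.87%, 8.47% and 8.83% against 59.42%, 66.47% and 60.8% in K700E (adjusted p = 4.33e-08 and 9.23e-08). The 83-nt intron 15 rose in WT from 3.28% ± 0.91 to 58.0% ± 4.17 and in K700E from 3.06% ± 0.88 to 46.6% ± 4.81. A 91-nt intron outside the coding part, at 33.3% ± 3.17 in WT DMSO, reached 84.0% ± 7.07, and intron 4 (235 nt) rose from 2.65% ± 0.60 to 47.9% ± 2.77. The called introns of NFKB2 ran from 83 to 272 nt. All NFKB2 introns with spliced reads here were short, the longest being intron 12 (423 nt, not tested), so this range shows no preference for length.

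The largest exon change of NFKB2 was at exon 11 (139 nt, coding), included at 98.49%, 98.94% and 99.39% in WT DMSO and 37.43%, 35.36% and 36.36% in WT H3B-8800. In K700E it was included at 98.93%, 99.4% and 98.71% against 46.77%, 45.04% and 38.54%. Exon 14 was called in K700E from samples that disagreed, at 100%, 68.75% and 91.39% in H3B-8800, so its mean rests on replicate 2. An annotated 3' site 3 nt from its alternative went from 52.6%, 53.31% and 52.38% to 40.05%, 45.31% and 41.09% in K700E (adjusted p = 0.027), and the call was lost in 5 of 6 fits without 1 sample, all but that without H3B-8800 replicate 2 (adjusted p up to 0.0832). Spliced NFKB2 reads were 227, 216 and 253 RPM against 177, 209 and 232 RPM in WT and 296, 291 and 485 RPM against 287, 245 and 384 RPM in K700E. The log2 differences of -0.18 (adjusted p = 0.491) and -0.21 (adjusted p = 0.424) did not pass the test, and with the clone as a replicate block they did (adjusted p = 0.0245 and 0.0105); with the centring size factors they were 0.09 and 0.01.

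RELA encodes the p65 subunit, which carries the transactivation domain of the canonical dimer. Exon 7 (chr11:65658718-65658822, minus strand, 105 nt) was included at 97.01%, 98.16% and 97.34% in WT DMSO and 49.43%, 56.07% and 55.23% in WT H3B-8800, and at 97.9%, 98.47% and 97.8% against 51.49%, 50.79% and 53.67% in K700E. The neighbouring exon 8 (213 nt) moved in step, from 97.0% ± 0.42 to 57.0% ± 5.22 and from 97.5% ± 0.40 to 56.0% ± 1.48. Both lengths are multiples of 3.

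The short RELA introns printed above were retained in H3B-8800. Intron 3 was at 2.46%, 2.34% and 2.09% in WT DMSO and 33.47%, 34.52% and 38.91% in WT H3B-8800, and at 1.95%, 0.76% and 1.77% against 27.74%, 30.99% and 25.4% in K700E. Intron 2 was at 0.48%, 0.5% and 0.48% against 27.51%, 21.2% and 28.15% in WT and at 1.8%, 1.58% and 3.3% against 21.13%, 19.58% and 20.16% in K700E. Intron 4 (1471 nt) rose from 9.62% ± 2.43 to 38% ± 3.21 in WT. Spliced RELA reads were 54.9, 58.7 and 65.2 RPM against 67.7, 78.9 and 81.7 RPM in WT (log2 difference 0.35, adjusted p = 0.0447) and 82.0, 73.9 and 72.3 RPM against 100, 68.1 and 89.5 RPM in K700E (log2 difference 0.16, adjusted p = 0.353). The WT call was lost without DMSO replicate 1 or 2 or H3B-8800 replicate 2 or 3 (adjusted p up to 0.138), and K700E was called without H3B-8800 replicate 2 (0.32, adjusted p = 0.0389). With the clone block WT was called (adjusted p = 0.00101) and K700E was not (adjusted p = 0.0708).

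**Figure D3:**
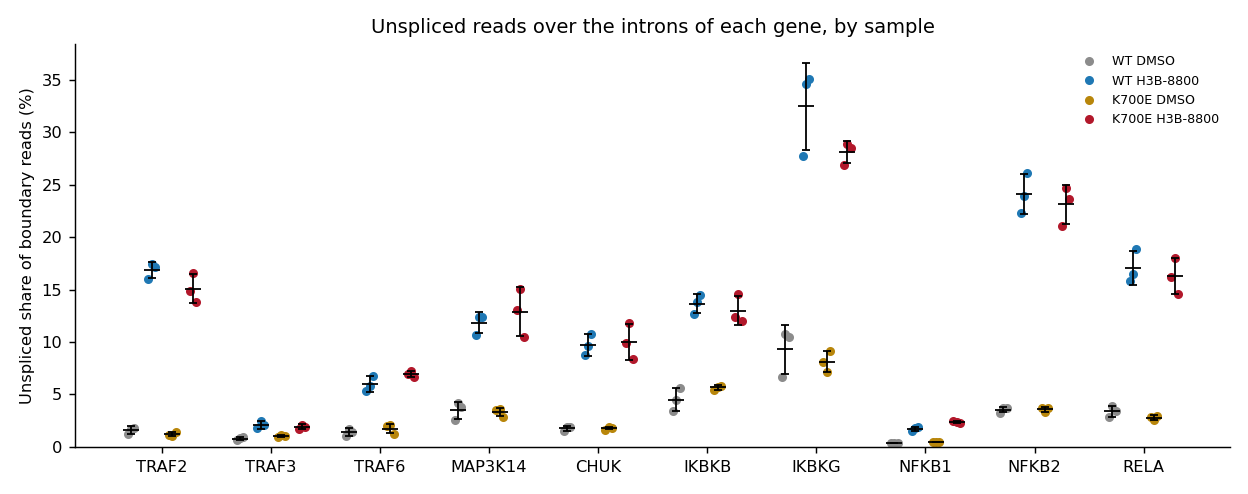
Share of reads over intron boundaries that were unspliced (percent, vertical axis), summed over the introns of each gene, in each sample; bars are the mean ± SD of 3 samples. IKBKG and NFKB2 reach 32.5% and 24.1% in WT H3B-8800, while TRAF3 and NFKB1 stay at 2.09% and 1.73%.

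The genes differed in how much unspliced RNA they held. In WT the unspliced share of boundary reads in H3B-8800 was highest in IKBKG (32.5% ± 4.17) and NFKB2 (24.1% ± 1.91), followed by RELA (17.1% ± 1.61) and TRAF2 (16.9% ± 0.783). IKBKB (13.7% ± 0.933), MAP3K14 (11.8% ± 0.945), CHUK (9.74% ± 1.03) and TRAF6 (5.97% ± 0.740) lay between these and TRAF3 and NFKB1. Each of the 10 genes had a higher share in every H3B-8800 sample than in every DMSO sample of its genotype. How many of all genes do so was not counted. Of all tested introns, 32.0% in WT and 31.6% in K700E were retained more, so this cannot be read as a trait of these genes. Introns called as retained more ranged from 83 to 5449 nt and exons called as included less from 41 to 214 nt in both genotypes. The 39 introns called in WT had a median length of 410 nt and the 49 not called 1270 nt, beside 521 and 1350 nt over all tested introns. The 34 called exons had a median of 99.5 nt and the 34 not called 123 nt, beside 102 and 113 nt over all exons, and 11 of the 34 (32.4%) had a length that is a multiple of 3, beside 37.2% of all called exons; these lengths were not tested.

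Between genotypes, the smallest p in either treatment was that of an inner 3' site of NFKB1 exon 11, whose sequence is printed above. In DMSO, the first inner site, 55 nt in, had 0 reads in the 3 WT samples, which allows a use of up to 0.395%, 0.443% and 0.434%, and was used at 2.11%, 1.91% and 2.0% in K700E. In H3B-8800 it was used at 0%, 0.51% and 0% in WT and at 12.02%, 16.23% and 15.28% in K700E, from 62.1, 79.8 and 69.4 corrected reads. K700E exceeded WT by 14.3 points in H3B-8800 (adjusted p = 6.58e-05) and by 2.01 points in DMSO, where the difference passed the test (adjusted p = 0.000532) and was below the size threshold. The second inner site, 72 nt in, rose with H3B-8800 in both genotypes, from 2.37%, 1.33% and 0.58% to 22.2%, 22.13% and 23.02% in WT and from 1.42%, 1.8% and 1.01% to 14.41%, 17.32% and 17.47% in K700E; it was not tested, since the shares of the sites sum to 100%. The annotated start fell by 21.2 points in WT (98.6% ± 0.90 to 77.4% ± 0.41, adjusted p = 1.14e-06) and by 27.5 points in K700E (96.6% ± 0.37 to 69.1% ± 3.90, adjusted p = 6.72e-06).

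The K700E use of the first inner site rose by 12.5 points with H3B-8800 (adjusted p = 0.000519), and the WT difference was 0.17 points (adjusted p = 0.0628). On the logit scale of the test the difference between these effects was not called (adjusted p = 0.711). The level was 0% in 5 of the 6 WT samples.

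**Figure D4:**
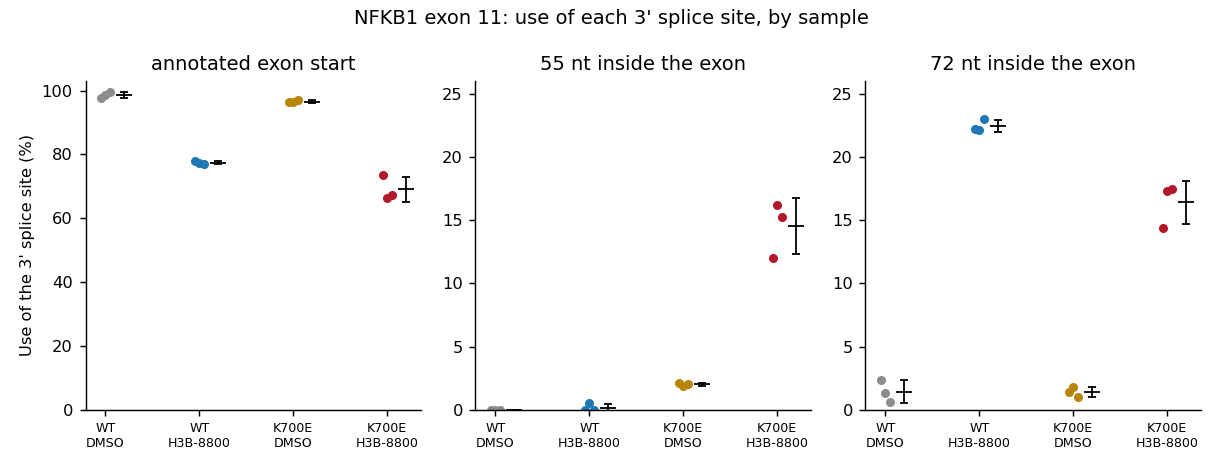
Use of each 3' splice site of NFKB1 exon 11 (percent, vertical axis, with different ranges) in each sample by group; bars are the mean ± SD of 3 samples. The site 55 nt inside the exon is used at 12.02% to 16.23% in K700E with H3B-8800 and at 0.51% or less in WT, whereas the site 72 nt inside is used in both genotypes with H3B-8800.

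In DMSO 0 of the 188 events were called by limma in K700E against WT, with 0.358% of all events called and 27 of the 188 at an unadjusted p under 0.05. In H3B-8800 2 of the 188 were called, with 0.502% of all events called: the NFKB1 site and a 3' site of IKBKG 20 nt upstream of its annotated site (chrX:154562790). The IKBKG site was used at 14.64%, 7.8% and 9.66% in K700E and 0% in the 3 WT samples, a difference of 10.7 points (adjusted p = 0.0153). It rested on 9.8, 3.0 and 5.9 corrected reads, and 0 reads in WT allow a use of up to 8.11%, 10.7% and 14.3%. Its call was lost without WT H3B-8800 replicate 1 or 2 or K700E H3B-8800 replicate 1 or 3 (adjusted p from 0.0334 to 0.0774 over the 6 fits without 1 sample).

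A TRAF6 site 25 nt upstream of the annotated one stood at 3.77%, 2.27% and 1.88% in K700E DMSO and at 0% in WT DMSO, where 0 reads allow up to 3.9%, 3.0% and 3.75%. That difference of 2.64 points passed the test (adjusted p = 0.0356) below the size threshold, from 3.3, 1.7 and 1.6 reads; each fit without 1 sample gave an adjusted p above the threshold, from 0.0575 to 0.113. NFKB2 intron 2 (272 nt) had the next smallest p, at 0.82% ± 0.25 in WT and 1.90% ± 0.24 in K700E (adjusted p = 0.0534). For the difference of the H3B-8800 effect, 0 of the 188 events were called by limma, with 0.00747% of all events called and 15 of the 188 at an unadjusted p under 0.05. Its smallest p-values were those of RELA intron 2, at -7.07 points (adjusted p = 0.36), MAP3K14 intron 9 (2.98 points, adjusted p = 0.501) and NFKB2 intron 4 (-4.73 points, adjusted p = 0.501).

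Spliced reads per gene did not follow one direction. The TRAF adaptors and MAP3K14 were called higher in both genotypes, no IkappaB kinase gene was called higher, and the subunit genes were mixed. Differences between these roles were not tested. In WT 2 of the 10 genes were lower, CHUK and NFKB1, and 5 higher, TRAF3, TRAF6, MAP3K14, TRAF2 and RELA, where 40.8% of all 10182 genes were called lower and 18.5% higher. In K700E the same 2 were lower and 4 higher, TRAF3, TRAF6, MAP3K14 and TRAF2, where 35.8% were called lower and 16.2% higher. With the clone block, IKBKG and NFKB2 were also called lower in WT (adjusted p = 0.000327 and 0.0245) and NFKB2 in K700E (adjusted p = 0.0105). That fit called 82.4% of all genes in WT and 78.3% in K700E. The WT difference of NFKB1, -0.28, stood at the median of all genes. With the centring size factors it was -0.01 and not called. The median of the 10 genes was 0.14 on the log2 scale in WT and 0.08 in K700E, beside -0.28 and -0.22 over all genes. Spliced reads are a share of each library, so fewer cells with a transcript and less of it per cell cannot be told apart. A called rise or fall is therefore relative to the other genes, and absolute amounts were not measured.

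Between genotypes, 0 of the 10 were called by limma in DMSO (4.86% of all genes were) with 3 at an unadjusted p under 0.05, and 1 of the 10 in H3B-8800 (14.2% of all genes were). This was CHUK, at 34 RPM ± 2.53 in WT and 46.3 RPM ± 4.40 in K700E, a log2 difference of 0.44 (adjusted p = 0.00888) that was not called in a fit of these 6 samples alone (adjusted p = 0.0871). In DMSO the CHUK difference was 0.19 (adjusted p = 0.21). NFKB2 was at 232 RPM ± 18.7 in WT and 357 RPM ± 111 in K700E in DMSO, with no overlap of the samples and a log2 difference of 0.58 (adjusted p = 0.131). The difference of the H3B-8800 effect was called in 0 of the 10 by limma, with 0.0491% of all genes called and 0 of the 10 at an unadjusted p under 0.05; with the clone block IKBKG was called, as given above.

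**Figure D5:**
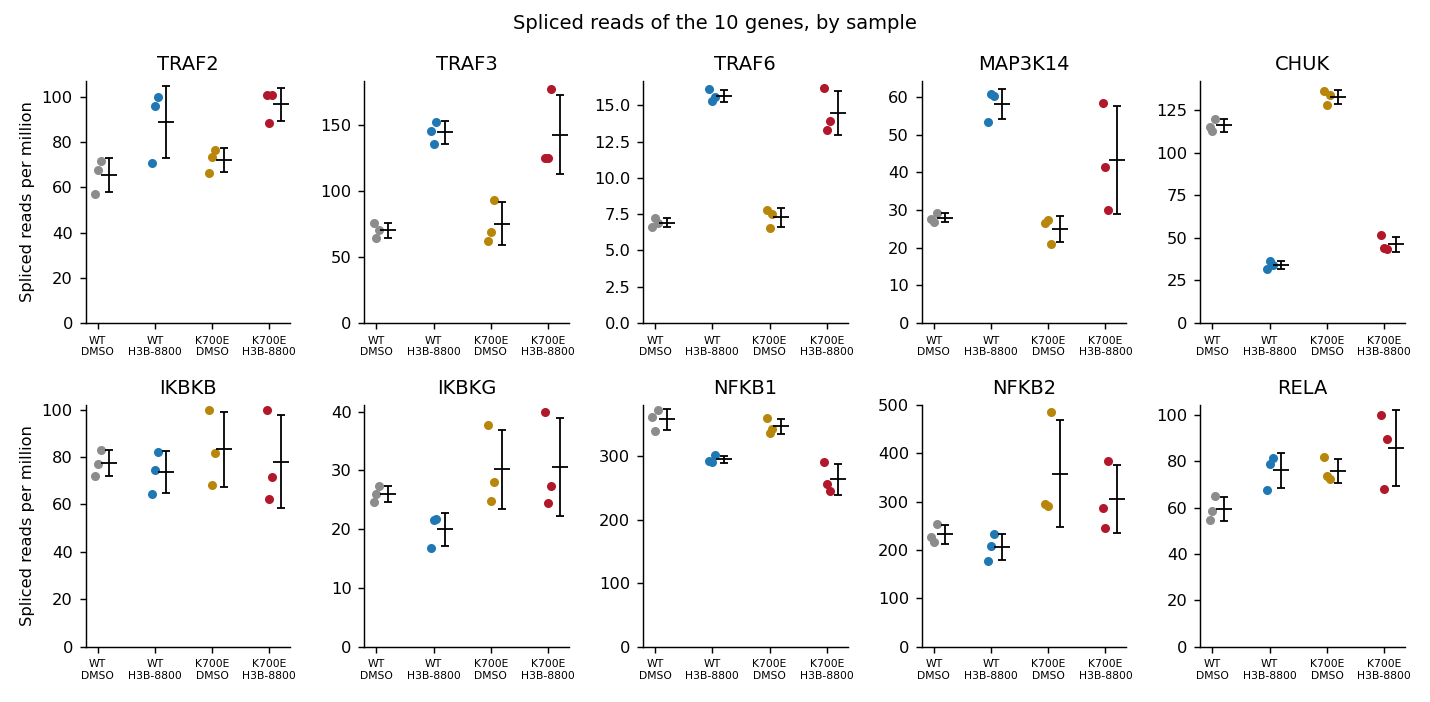
Spliced reads in RPM (vertical axis, each panel from 0 with its own range) for each gene in every sample by group; bars are the mean ± SD of 3 samples. TRAF3 and TRAF6 lie higher and CHUK lower in all H3B-8800 samples than in all DMSO samples of the same genotype, while IKBKB overlaps.

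Per intron, the level in WT DMSO was highest for NFKB1, at 15.6 RPM ± 0.705, then NFKB2 at 10.5 RPM ± 0.849. TRAF3 (7.02 RPM), TRAF2 (6.55 RPM), RELA (5.96 RPM) and CHUK (5.81 RPM) followed, and each overlapped its neighbour in this order. IKBKB (3.69 RPM), IKBKG (2.88 RPM), MAP3K14 (1.87 RPM) and TRAF6 (1.15 RPM) were lower and separate. The genes most like TRAF3 in log2 spliced reads over the 12 samples were NRAS (Pearson r 0.988), EIF4A3 (0.985) and TGFBR1 (0.984), given as a description.

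The rest of the pathway was followed in a list of 62 receptors, adaptors, kinases, inhibitors, other subunits and target genes, of which 57 had enough spliced reads. In WT 20 (35.1%) were lower and 14 (24.6%) higher, beside 40.8% and 18.5% of all genes, and in K700E 17 (29.8%) were lower and 12 (21.1%) higher, beside 35.8% and 16.2%. Of 18 receptors and adaptors 10 (55.6%) fell and 1 rose in each genotype, and of 8 inhibitors and other subunits 1 fell in each and 5 rose in WT and 4 in K700E. Of 17 kinases and ubiquitin enzymes 8 fell and 5 rose in WT and 5 fell and 4 rose in K700E, and of 14 targets 1 fell and 3 rose in each. Whether these groups differ from all genes or from each other was not tested. CD40, the receptor through which T cells activate B cells and a trigger of the noncanonical pathway, fell from 64.8 to 11.4 RPM in WT (log2 difference -2.52, adjusted p = 1.74e-06) and from 93.1 to 27.7 RPM in K700E (-1.77, adjusted p = 3.35e-05). TRADD, an adaptor of TNF receptors, fell by 2.51 on the log2 scale in WT and by 2.42 in K700E, from 2.01 and 2.29 RPM in DMSO. BCL3, a nuclear partner of p50 and p52, rose by 1.46 and 1.40, and TANK, which binds TRAF proteins and the kinase TBK1, by 1.10 and 1.02. Of the 604 tested splicing events of the list, 199 (32.9%) were called in WT and 199 in K700E, close to the background given above.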

How the data were processed

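Poly(A)-selected RNA from 12 MEC1 samples was sequenced as stranded libraries in 3 paired-end runs each, per the labels' protocols. The submitters' processing notes name cutadapt 2.4 and hg38; for the aligner and event tool, nothing is given in the sources used here. Per the file headers, the deposited table holds, for each splicing event and sample, an inclusion level in percent and a text field with read numbers, in the layout of a vast-tools table. The percent is a ratio within a sample and was not scaled between samples. A further 36 columns with single runs were not used. The 10 genes and the pathway and marker lists were chosen with earlier results of these data known.

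From the deposited read numbers, an event was tested when it had at least 10 reads in all 12 samples and a mean of 1% to 99%. Introns whose boundaries differed in reads (balance p under 0.05 in more than 6 samples) and the first site of each alternative site event were left out. Inclusion and exclusion reads, each plus 0.5, were made into a log2 ratio, and limma 3.58.1 (R 4.3.3) fitted it over all 4 groups with a trend on read depth, and the test was tried on simulated data. Spliced reads per gene were the exon-exon reads of its introns scaled to the sample's total (RPM) after adding 0.5 reads, fitted the same way over the 10182 genes that averaged 50 reads or more. Exon and intron numbers follow 1 principal GENCODE 29 transcript per gene. P-values measure the spread among 3 cultures or clones, with WT cultures a and b counted as separate replicates. Named for each gene and genotype were the called exon, intron and alternative site with the largest difference; for the genotype contrasts, all called events or the 3 with the smallest p; for the pathway list, the 2 largest falls and rises. Other events were added after their values were seen.

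The same culture or clone gave a DMSO and an H3B-8800 sample, so replicate numbers pair these. Deviations from the group mean in log2 spliced reads correlated at 0.658 to 0.925 within such pairs, and those of event logits at 0.0148 to 0.0659. Between genotypes the numbers are only names. The sequence of 1 TRAF3 exon is not reported here.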

Additional observations from a re-analysis of the deposited data

Results flagged for a closer look

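Introns whose reads differed between their ends were not tested. In 5 of the 13, the share of reads over the 5' boundary was higher in every H3B-8800 sample than in every DMSO sample, in both genotypes. In these 5 it averaged at least 10% in H3B-8800 in both genotypes. The same count over such introns of all genes was not made, so the 5 cannot be read as a trait of these genes. TRAF3 intron 6 (9663 nt), directly before exon 7, had 11, 5 and 8 reads over its 5' boundary in WT DMSO and 143, 193 and 165 in WT H3B-8800, and 9, 7 and 20 against 80, 114 and 162 in K700E. Its 3' boundary had 0, 1 and 1 reads in WT DMSO and 6, 6 and 2 in WT H3B-8800. Relative to spliced reads, the 5' share went in WT from 1.66% ± 0.457 to 17.8% ± 3.09 and in K700E from 2.57% ± 0.809 to 13.6% ± 2.43. MAP3K14 intron 6 (10218 nt) had the same one-sided form: its 5' share went in WT from 0.836% ± 0.820 to 15.5% ± 3.42 and in K700E from 2.49% ± 2.37 to 18.6% ± 4.12, with mean 3' boundary reads of 0.333 and 3.33 in WT.

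In NFKB2 the imbalance lay on the other side. The 5' share of intron 12 (423 nt) went in WT from 2.84% ± 1.10 to 19.7% ± 10.5 and in K700E from 3.61% ± 1.41 to 21.4% ± 7.23, and that of intron 14 (361 nt) from 2.28% ± 0.680 to 30.1% ± 3.49 and from 2.12% ± 0.314 to 28.6% ± 2.84. The 3' boundary of intron 14 had a mean of 111 reads in WT DMSO and 667 in WT H3B-8800, against 4.0 and 24.0 over the 5' boundary. IKBKG intron 3 (2155 nt) had a 5' share of 23.0% ± 5.42 and 42.9% ± 1.39 in WT and of 18.6% ± 5.14 and 26.6% ± 0.393 in K700E. None of these differences was tested, and no cause was examined.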

How the results depend on the processing

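Of the 50 named event results, 705 alternative values kept direction and call and 10 lost the call, all at the IKBKG site and a 3-nt NFKB2 3' site (52.8% and 42.2% in K700E, adjusted p = 0.027). Of the 24 named gene results, 282 values kept both, 14 lost the call, 9 gained it and 12 changed sign. Tested on percentage points, 1 event was called for K700E against WT in DMSO, 6 in H3B-8800 and 2 for the difference of the H3B-8800 effect, with 0.403%, 2.43% and 0.598% of all events. A size threshold of 5 points gave 108 events in WT and 115 in K700E (57.4% and 61.2%, beside 45.7% and 45.4% of all events). The cause of these changes was not tested. Leaving out single samples gave 1 to 2 events and 1 to 3 genes for K700E against WT in H3B-8800, and 5 to 7 genes for H3B-8800 in WT and in K700E. Over the same fits the log2 difference ranged from -0.15 to 0.02 (WT) and -0.30 to 0.04 (K700E) for IKBKB, and in K700E from -0.20 to 0.18 for IKBKG and -0.39 to 0.03 for NFKB2. Median-of-ratios size factors, which move the median of all genes in WT from -0.28 to -0.011 and in K700E from -0.221 to -0.004, gave 0.19 and 0.11 for IKBKB and 0.09 and 0.01 for NFKB2, made RELA a call in K700E (0.38, adjusted p = 0.0153) and called 2 genes between genotypes in H3B-8800. A fit of the 2 groups alone called 0. Without introns that border a called exon IKBKG in K700E was at -0.25.

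With the replicate block, by clone, genes called went in WT from 7 to 9 and in K700E from 6 to 7 (of all genes from 59.3% to 82.4% and from 52.0% to 78.3%), and for the difference of the effect from 0 to 1 (0.0491% to 6.05%). Blocked by number, which is only a name between genotypes, they went to 1 in DMSO and 2 in H3B-8800 (of all genes from 4.86% to 10.0% and from 14.2% to 21.1%). The genotype calls gained were NFKB2 in DMSO (0.58, adjusted p = 0.0221) and in H3B-8800 (0.55, adjusted p = 0.0167). The block changed no event count (77, 83, 0, 2 and 0). Depth limits the low-use sites of IKBKG and TRAF6, and the reads shared with a copy limit IKBKG.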
